A study of Rattus norvegicus with 32 samples.

Results

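Clonal thymic epithelial cell cultures from newborn rats (postnatal day 1, P1) were compared with clonal thymic cultures from rat embryos (embryonic day 16, E16) by gene expression on Affymetrix rat gene arrays. The members were chosen by the donor stage that the labels give: 3 P1 cultures and 5 E16 cultures, each measured on 2 arrays, which makes 16 of the 32 arrays and 8 of the 16 cultures of a series on thymic and hair follicle cells before and after transplantation into skin. All cells came from Sprague-Dawley rats that carry the act-EGFP transgene and express green fluorescent protein constitutively, and all were grown on irradiated mouse fibroblasts of the 3T3-J2 line. Among P1 cultures, PRP1cl11_VII was never grafted, Clone_57 was recovered after the first transplantation and Clone_194 after the second. Among E16 cultures, PRE16cl11_VII was never grafted, Clone_217 and Clone_218 were recovered after the first transplantation, and Clone_287 and Clone_347 after the second. Grafted cells grew in skin on nude mice, which lack a working thymus, and were dissociated and cultured again. Each culture is 1 clone, and the labels do not say how many rats the clones came from or whether a grafted clone descends from the ungrafted one, so donor stage cannot be told apart from donor animal and clone lineage. The limma p-values below take the clones as independent. They rest on the spread between grafted E16 clones of the same state and on how the stage difference varies between states. Each state holds 1 P1 clone, so the spread between P1 clones of the same state was not measured.

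Thymic epithelial cells form the stroma in which T cells mature. The organ grows quickly around birth, and its epithelium derives from pharyngeal endoderm that first expresses keratins of simple epithelia, such as Krt8 and Krt18, while cells able to form colonies in culture also express keratins of basal layers. Clonal growth in culture is limited by cell cycle inhibitors, of which the proteins of the Cdkn2a and Cdkn2b genes are the best known.

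The values are log2 signals, so a difference of 1 is a 2-fold change, and differences are given as P1 minus E16. Median signals over the 15316 probe sets with 1 gene symbol lay between 6.34 and 6.48 in the 8 cultures, and the arrays of a culture correlated at 0.989 to 0.998 across probe sets. The basal keratin Krt14 lay between 13.06 and 13.20 in P1 cultures and between 12.95 and 13.31 in E16 cultures, and the epithelial adhesion genes Epcam and Cdh1 lay above 10 in every culture. Foxn1, the transcription factor that defines thymic epithelium, lay at 5.67 to 5.89 in P1 cultures and at 5.48 to 6.01 in E16 cultures. Psmb11, a proteasome subunit of cortical thymic epithelium, lay near 4 in all 8 cultures, and Ccl25, a chemokine of thymic epithelium, stayed under 4. Signals under 4 are treated here as not shown above background. Aire, the regulator of medullary thymic epithelium, lay at 5.79 to 5.95 in P1 cultures and at 5.71 to 6.21 in E16 cultures, and Prss16, a protease of cortical thymic epithelium, at 5.22 to 5.54 in P1 cultures and at 5.30 to 5.67 in E16 cultures. Levels of different probe sets cannot be set against each other, so these values do not rank the markers. The leukocyte markers Ptprc and Cd3e were under 4 in every culture.

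With transplantation state in the model, 870 of 15316 probe sets (5.68%) passed an adjusted p of 0.05 in limma. Of these, 459 (3.00%) were higher and 411 (2.68%) were lower in P1 cultures. Every one of the 870 had the same sign in the ungrafted cultures, after the first transplantation and after the second. The culture values of P1 and E16 did not overlap for 731 of the called probe sets, while over all probe sets they did not overlap for 2406 (15.7%). The median difference over all probe sets was 0.0043. The smallest adjusted p was 0.0159, and the fit leaves 4 residual degrees of freedom. The count of calls depended on single cultures. Without Clone_57 limma called 0 probe sets (1716 at an unadjusted p under 0.05), and without Clone_194 it called 2 (2297 unadjusted). It called 148 without either ungrafted culture, 183 without Clone_217 and 259 without Clone_218. In each of these fits all 870 kept their sign, and the differences over all probe sets correlated with those of the full fit at 0.963 to 0.985. Without Clone_57, Clone_194 or either ungrafted culture, the kept sign follows from the same sign in every state, because each state holds 1 P1 culture. No call was kept in all 8 fits that each leave out 1 culture.

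Over the whole transcriptome the stages lay little farther apart than grafted E16 cultures of the same state among themselves. The root mean square log2 difference between a P1 and an E16 culture of the same state averaged 0.465, and that between E16 cultures of the same state 0.454. The difference of 0.0112 had a one-sided exact permutation p of 0.444, over 18 arrangements of the labels within states that allow no p below 0.111. The mean between stages includes the ungrafted pair, at 0.415, while the mean within E16 holds grafted cultures only. It rests on Clone_217 with Clone_218, at 0.412, and Clone_287 with Clone_347, at 0.496. E16 cultures of different states could be closer, as Clone_217 and Clone_287 were, at 0.26. In the 6 grafted cultures alone the means were 0.478 and 0.454, a difference of 0.0237. The most alike cultures were Clone_217 and Clone_287 of E16, which correlated at 0.995, and Clone_57 and Clone_194 of P1, at 0.995. The test for a stage difference that changes with transplantation state called 0 probe sets in limma, with 197 at an unadjusted p under 0.05.

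The decreases included several enzymes known from detoxification, grouped here after their values were seen. Gsta4, Nqo1, Nqo2 and Ephx1 were selected for having no overlap between the stages, so their separation is not a further result. Gsta4, a glutathione transferase that clears the lipid peroxidation product hydroxynonenal, had signals of 6.53 in PRP1cl11_VII, 6.40 in Clone_57 and 6.27 in Clone_194, against 8.63 in PRE16cl11_VII, 9.12 in Clone_217, 9.36 in Clone_218, 9.05 in Clone_287 and 9.58 in Clone_347. The P1 cultures lay close together and all of them far below the lowest E16 culture. Gsta4 was 6.53-fold lower in P1 (log2 difference −2.71 ± 0.20 SE, limma adjusted p = 0.0159), and the other Gsta4 probe set gave −3.14. Nqo1, a quinone reductase, had 8.71, 8.79 and 8.95 in P1 cultures, against 10.03 in the ungrafted E16 culture and 11.09, 11.15, 10.85 and 10.71 in the grafted E16 cultures. No P1 value came near an E16 value, and the log2 difference was −1.87 ± 0.17 (limma adjusted p = 0.0166). Nqo2, its paralogue, had 4.54, 4.34 and 3.25 in P1 cultures, against 6.88, 6.55, 7.20, 6.37 and 5.74 in E16 cultures, 5.98-fold lower in the fit (adjusted p = 0.0159 in limma), with 1 of the 3 P1 cultures under 4. Nqo2 was also at 6.4 or above in all 8 cultures of 4-month thymus and of hair follicle, so its low level was seen in the P1 cultures alone among the 16. Ephx1, the microsomal epoxide hydrolase, had 9.15, 7.73 and 8.23 in P1 cultures, against 10.86, 10.14, 9.85, 9.59 and 10.24 in E16 cultures.

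Of the list of xenobiotic and retinoid metabolism, with 37 probe sets of 36 measured genes, 6 probe sets fell (both of Gsta4, and those of Gstm2, Gstp1, Sult1d1 and Crabp2), 1 rose and 30 did not pass, with a median difference of −0.11. Gstm2, another glutathione transferase, fell by 1.26. Sult1d1, a sulfotransferase, differed by −2.34, but its groups overlapped: the ungrafted cultures were low in both stages, at 3.64 in P1 and 4.04 in E16. Crabp2, which carries retinoic acid to its receptor, fell by 0.86, with overlapping values. Cyp3a9, a cytochrome P450, was the member that rose, by 0.94, and its gene lies on chromosome 12. Over the list, 24 differences were negative and 13 positive, and 18.9% of its probe sets were called, against 5.68% of all. Outside the list, Sult1b1, a further sulfotransferase, had 4.89, 5.42 and 5.08 in P1 cultures, against 6.20, 7.63, 8.80, 8.47 and 9.11 in E16 cultures (log2 difference −2.73, adjusted p = 0.029 in limma). Sult1b1 too was selected for having no overlap. In the 6 grafted cultures alone 5 of the list's probe sets fell, and 3 did without Clone_217, without Clone_218 or without Clone_347.

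**Figure D1:**
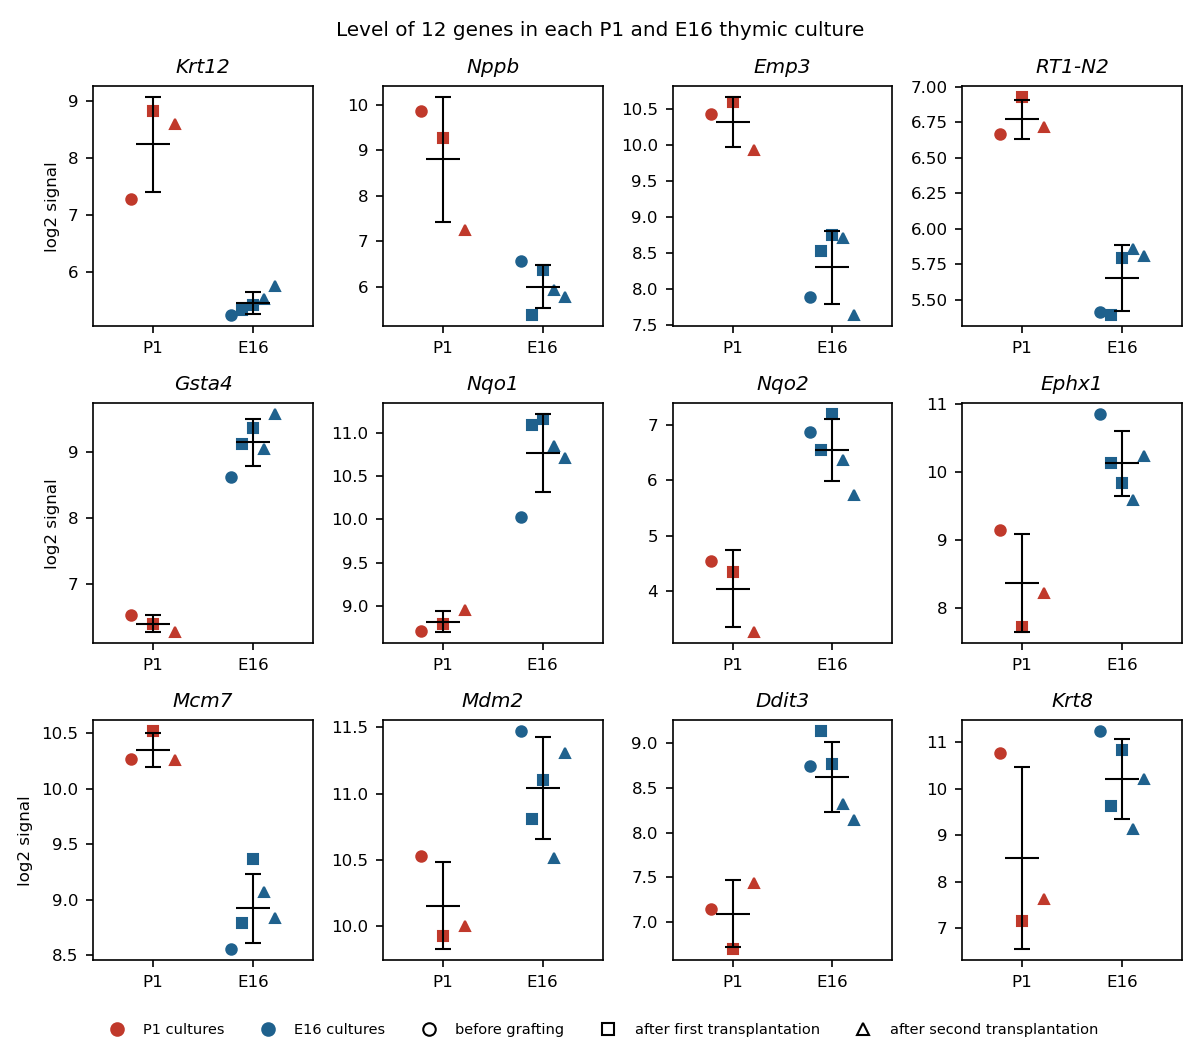
Log2 signal (y axis) of 12 genes in the P1 cultures (red, left) and E16 cultures (blue, right). Each point is 1 culture, the mean of its 2 arrays, its shape gives the transplantation state, and the bars are the mean and SD of 3 P1 and 5 E16 cultures. Krt12, Nppb, Emp3, RT1-N2 and Mcm7 lie higher in all P1 cultures, Gsta4, Nqo1, Nqo2, Ephx1 and Ddit3 lie lower, and Mdm2 and Krt8 overlap.

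The largest increases included Krt12, a keratin best known from corneal epithelium. It had 7.29 in PRP1cl11_VII, 8.83 in Clone_57 and 8.60 in Clone_194, against 5.25, 5.35, 5.43, 5.53 and 5.77 in the E16 cultures. All E16 values fell within a narrow band, and the lowest P1 culture lay well above it (7.37-fold higher in P1, log2 difference 2.88 ± 0.23, adjusted p = 0.0159 in limma). Krt12 passed in 6 of the 8 fits that leave out 1 culture. Nppb, which encodes B-type natriuretic peptide, had 9.87, 9.28 and 7.26 in P1 cultures, against 6.56, 5.38, 6.37, 5.94 and 5.77 in E16 cultures, a difference of 2.65 ± 0.42. Emp3, an epithelial membrane protein, had 10.43, 10.60 and 9.93 in P1 cultures, against 7.88, 8.53, 8.75, 8.71 and 7.63 in E16 cultures, a difference of 2.05. Car2, a carbonic anhydrase, rose by 2.02, Slc16a3, a lactate transporter, by 1.86, Scrn1 by 2.10 and Akr1e2 by 1.85. Mms22l, which acts in the repair of stalled replication forks, rose by 1.80, and Clybl and Bbs10 by 1.71 and 1.67. Slc16a3 passed in 1 of the fits that leave out 1 culture, and Nppb, Emp3 and Car2 in 4. The other genes named here passed in 6 of them, as Krt12 did. All of these genes were selected for having no overlap between the stages.

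Sema3a, a secreted guidance cue, and Armcx6 rose mainly in the grafted cultures. Sema3a had 7.45, 8.30 and 8.91 in P1 cultures, against 6.50 in the ungrafted E16 culture and 3.57, 5.4, 3.78 and 4.14 in the grafted ones, and Armcx6 had 6.21, 9.67 and 9.56 in P1 cultures, against 5.58, 4.98, 4.72, 5.45 and 4.89 in E16 cultures. In the ungrafted cultures the difference was 0.95 for Sema3a and 0.63 for Armcx6. Neither had an interaction with state that passed adjustment.

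Other genes lower in P1 cultures included Pln, an inhibitor of the calcium pump of the endoplasmic reticulum (log2 difference −2.34), Tcp11l2 (−2.19), Fgf21, a stress-induced growth factor (−2.13), Selenop, a plasma selenium carrier (−1.98), and Tbx15, a T-box transcription factor (−1.97). Slc30a2, a zinc transporter, had 7.49, 7.49 and 7.69 in P1 cultures, against 9.15, 10.43, 8.81, 9.97 and 9.32 in E16 cultures. Sat1, which acetylates polyamines, had 10.16, 9.23 and 8.87 in P1 cultures, against 11.48, 11.06, 11.56, 10.76 and 11.23 in E16 cultures. N4bp2l1, Pfn2 and S100a7a were lower too, with log2 differences of −1.93, −1.87 and −1.87. These genes too were selected for having no overlap, and N4bp2l1 and S100a7a passed in none of the fits that leave out 1 culture.

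Cdkn2a, which encodes the cell cycle inhibitor p16INK4a and the p53 activator ARF, showed the largest increase. Within E16 it was high in the ungrafted culture and low in the grafted ones. With 1 ungrafted E16 clone, grafting cannot be told apart from clone there. It had 10.44 in PRP1cl11_VII, 10.29 in Clone_57 and 10.05 in Clone_194. In E16 cultures it had 9.79 before grafting, and 3.79 in Clone_217, 4.49 in Clone_218, 4.05 in Clone_287 and 4.48 in Clone_347. The P1 clones were high in every state, while the grafted E16 clones were near or under the level not shown above background. The fitted difference was 22.9-fold, with 1 of the 5 E16 cultures under 4 (log2 4.52 ± 0.92, limma adjusted p = 0.0415), but it was 0.65 in the ungrafted cultures, 6.15 after the first and 5.79 after the second transplantation. Its interaction with state had an unadjusted p of 0.000313 in limma and did not pass adjustment. Of the grafted cultures outside the comparison, the 4-month thymic cultures had 8.04 after the first transplantation (Clone_907) and 4.43 after the second (Clone_354), and the hair follicle cultures YR219P5_RC and Clone_54 had 8.20 and 7.94.

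Its neighbour Cdkn2b, which encodes the related inhibitor p15INK4b, had 9.48, 8.81 and 8.95 in P1 cultures, against 8.76 in the ungrafted E16 culture and 6.05, 6.04, 5.91 and 6.53 in the grafted ones (log2 difference 2.19 ± 0.37, adjusted p = 0.0296 in limma). Mtap, on the other side of Cdkn2a, which encodes an enzyme of methionine salvage, had 8.17, 7.77 and 7.42 in P1 cultures, against 6.77 in the ungrafted E16 culture and 5.74, 5.82, 5.49 and 6.36 in the grafted ones (1.65 ± 0.21, adjusted p = 0.0185 in limma). Farther out, Elavl2, an RNA-binding protein gene, had 4.59, 4.58 and 3.84 in P1 cultures, against 4.53 in the ungrafted E16 culture and 2.89, 3.12, 2.90 and 3.01 in the grafted ones, and did not pass. Klhl9 and Plaa, the measured genes at the ends of the stretch, differed by 0.02 and 0.16, and Dmrta1 and Zfp352 were under 4 in all 8 cultures. The order of these genes is that of the rat assembly GRCr8 on chromosome 5. DNA was not measured, and the cause of the low levels was not tested.

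**Figure D2:**
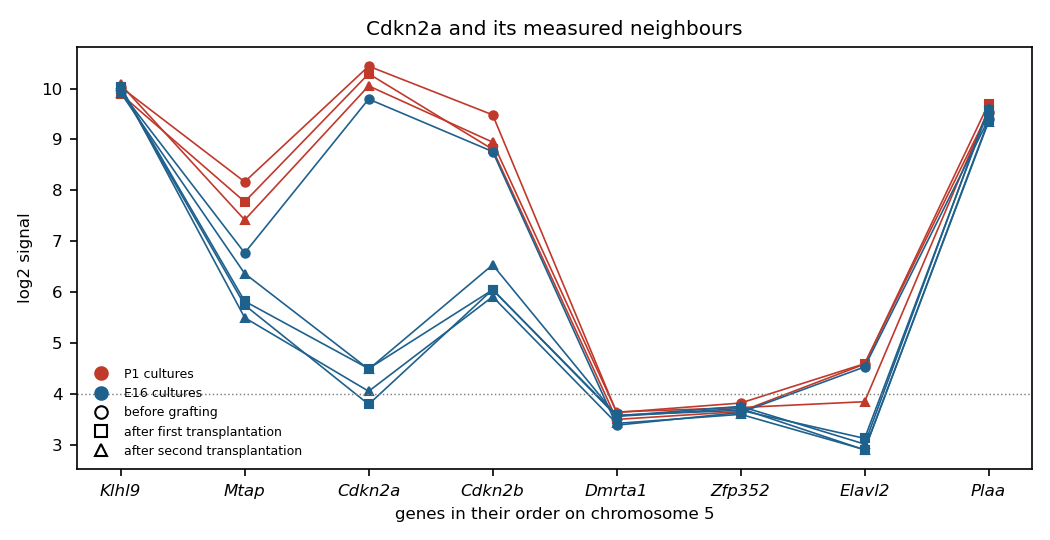
Log2 signal (y axis) of Cdkn2a and 7 measured neighbours in their order on chromosome 5 (x axis, not to distance). Each line is 1 culture, P1 in red and E16 in blue, marker shapes give the transplantation state, and the dotted line marks a signal of 4. The 4 grafted E16 cultures drop at Mtap, Cdkn2a and Cdkn2b and meet the other cultures at Klhl9 and Plaa. At Elavl2, which did not pass, they lie under 4, as does Clone_194 of P1.

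The start regions of these 3 neighbouring genes are shown because all were called higher in P1 cultures. They did not change alike between states. In the ungrafted cultures the difference was 1.40 for Mtap, 0.65 for Cdkn2a and 0.72 for Cdkn2b. After the first transplantation it was 1.99, 6.15 and 2.76. Each window holds 250 bases before to 50 after the gene's start (RefSeq, GRCr8, 5′ to 3′ on the gene's strand), with CG pairs, the sites where DNA can be methylated, in capitals.
Mtap: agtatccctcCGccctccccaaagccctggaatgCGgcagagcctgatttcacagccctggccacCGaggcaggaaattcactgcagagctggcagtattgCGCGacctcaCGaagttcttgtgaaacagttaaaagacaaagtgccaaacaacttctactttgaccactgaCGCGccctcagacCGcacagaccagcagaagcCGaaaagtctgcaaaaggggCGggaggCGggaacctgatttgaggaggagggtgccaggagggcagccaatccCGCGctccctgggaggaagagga
Cdkn2a: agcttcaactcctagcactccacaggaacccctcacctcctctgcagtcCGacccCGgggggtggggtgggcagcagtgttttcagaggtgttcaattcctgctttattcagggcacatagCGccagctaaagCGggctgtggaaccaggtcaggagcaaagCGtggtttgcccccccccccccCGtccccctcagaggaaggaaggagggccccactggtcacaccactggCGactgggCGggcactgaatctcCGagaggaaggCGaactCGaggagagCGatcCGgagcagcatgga
Cdkn2b: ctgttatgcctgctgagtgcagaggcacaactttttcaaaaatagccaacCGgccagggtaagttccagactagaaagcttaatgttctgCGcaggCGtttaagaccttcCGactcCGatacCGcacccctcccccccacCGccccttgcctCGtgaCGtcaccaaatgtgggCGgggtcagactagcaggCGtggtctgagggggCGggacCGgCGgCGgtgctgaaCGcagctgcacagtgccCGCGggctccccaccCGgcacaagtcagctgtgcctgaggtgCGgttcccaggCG
The windows lie at chr5:108990020-108990319 on the plus strand for Mtap, and at chr5:109107907-109108206 and chr5:109134806-109135105 on the minus strand for Cdkn2a and Cdkn2b. They hold 14, 13 and 21 CG pairs, in the order printed, where the median over 27457 genes was 7. At least as many CG pairs were found in 36.2%, 38% and 24.5% of all genes' windows, so the 3 windows are richer than the median without standing apart. Only 1 window was taken per gene, so any other start, such as a separate one for p16INK4a or ARF, is not covered. Methylation was not measured.

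The start regions of all called genes were also searched on both strands for TGACNNNGC, the core of the antioxidant response element that NRF2 binds, and for CACGTG, the E-box bound by TFEB and MYC among others. TGACNNNGC was found in 15.5% of the windows of genes lower in P1, in 15.7% of those of genes higher in P1, and in 13.8% of those of all tested genes. CACGTG was found in 8.16% of the windows of lower genes, 12.1% of those of higher genes and 7.87% of those of all. Windows were found for 343 lower, 381 higher and 11972 tested genes, and a match is a description of the letters only.

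Most of the stress signalling genes that passed the test were lower in P1 cultures. Of 30 probe sets of the list of p53, stress and senescence genes, 9 fell, 2 rose (Cdkn2a and Cdkn2b) and 19 did not pass. That is 36.7% called, against 5.68% of all probe sets. In the list 24 differences were negative and the median was −0.64, against 0.0043 over all probe sets. Ddit3, the stress transcription factor CHOP, had 7.15, 6.69 and 7.44 in P1 cultures, against 8.75, 9.14, 8.76, 8.32 and 8.14 in E16 cultures (log2 difference −1.54, adjusted p = 0.0299 in limma). Tp53inp1, a p53 target that also acts in autophagy, fell by 1.62. Mdm2, the ubiquitin ligase that restrains p53 and is itself a p53 target, fell by 0.96, though the ungrafted P1 culture lay at 10.53, inside the E16 range of 10.52 to 11.47. The p53 target Cdkn1a fell by 0.79, and the growth arrest genes Gadd45a, Gadd45b and Gadd45g by 0.97, 0.91 and 0.84, the last with overlapping groups. Atf3, a stress-induced transcription factor, fell by 1.23 with overlapping groups, and Nqo1 was given above. In the 6 grafted cultures alone 1 member of the list fell, and 2 did without Clone_217 or without Clone_218.

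Genes of the cell cycle and of DNA replication pointed upward together. All 39 probe sets of that list had positive differences, with a median of 0.59, of which 5 rose and 34 did not pass. This makes 12.8% called, against 5.68% of all probe sets. The 5 were Mcm7 and Mcm2, subunits of the replicative helicase, Cdt1, which loads it, and the cyclins Ccna2 and Ccne2. Mcm7 had 10.27, 10.52 and 10.26 in P1 cultures, against 8.55, 8.79, 9.36, 9.07 and 8.84 in E16 cultures, a difference of 1.47 ± 0.16 (adjusted p = 0.0166 in limma). Its gene lies on chromosome 12. Cdt1, Mcm2, Ccna2 and Ccne2 rose by 1.09, 0.89, 0.73 and 0.70, and the values of Ccna2 overlapped. The count of 5 became 2 without the state in the model and without Clone_347, 3 with all 16 cultures in the fit, 13 without Clone_287 and 1 without Clone_217. The growth state of the cultures at harvest is not given by the labels, and its part in the result was not tested.

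RT1-N2, a nonclassical class I gene of the rat major histocompatibility complex, had 6.66, 6.93 and 6.72 in P1 cultures, against 5.41, 5.39, 5.80, 5.86 and 5.81 in E16 cultures. All P1 values were above all E16 values, by a log2 difference of 1.15 ± 0.14 (2.22-fold, adjusted p = 0.0166 in limma). RT1-CE5, a class I gene of the same complex, rose by 0.98, Hfe, a class I-like regulator of iron uptake, by 0.50 with overlapping groups, and RT1-CE16 fell by 0.54. The other 36 probe sets of the class I and antigen presentation list did not pass, and its median was 0.08. In this list 10% of probe sets were called, against 5.68% of all. Class I genes are near-identical copies and differ between rat haplotypes, so a probe set may read several of them, and the donors' haplotypes are not given. Of 28 probe sets of interferon response genes, Mx2 and Gbp2 rose, by 0.81 and 0.85, while Ifih1 and Oasl, which act in sensing and restricting viral RNA, fell by 1.04 and 0.91. Oas1b passed as higher, but it had 4.02, 4.99 and 5.37 in P1 cultures, against 3.64, 3.66, 3.69, 4.06 and 3.71 in E16 cultures, so 4 of the 5 E16 values were not shown above background and the groups overlapped. Oas1b and Oasl lie on chromosome 12. The interferon list had a median of −0.10, with 17 negative and 11 positive differences, and 17.9% of its probe sets were called, against 5.68% of all.

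Krt8 was lower in grafted P1 cultures but not past the test. It had 10.76 in PRP1cl11_VII, 7.14 in Clone_57 and 7.61 in Clone_194, against 11.24 in the ungrafted E16 culture and 9.61, 10.82, 9.12 and 10.21 in the grafted ones. The ungrafted P1 culture lay within the E16 range and both grafted P1 cultures lay below it, with a difference of −2.00 ± 0.51 (adjusted p = 0.0686 in limma, and −1.68 for the other probe set). Krt18, its partner in filaments, differed by −2.23 (adjusted p = 0.125 in limma; −1.52 and −0.29 for its other probe sets), with 7.68, 5.33 and 5.23 in P1 cultures, against 9.63, 7.03, 9.22, 5.72 and 8.49 in E16 cultures. Of 20 probe sets of the simple epithelium list, 18 were negative, with a median of −0.54, but only those of Elf3 and Spint1 fell. That is 10% called, against 5.68% of all probe sets. Elf3, an epithelial transcription factor, had 9.52, 9.10 and 8.91 in P1 cultures, against 10.56, 10.75, 10.97, 10.36 and 10.96 in E16 cultures (−1.56, adjusted p = 0.0166 in limma). Spint1, an inhibitor of membrane proteases, fell by 0.72.

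Among regulators of thymic epithelial identity, Meis1, a homeobox cofactor, fell by 1.03, with 8.53, 7.78 and 7.60 in P1 cultures, against E16 values of 8.98 before grafting and 9.0, 9.13, 8.58 and 9.05 after it, and the other 9 did not pass. Pax9, needed for pharyngeal pouch development, had a difference of −0.95 (adjusted p = 0.102 in limma), and Foxn1 and Isl1 had differences of −0.02 and −0.04. Of 24 probe sets of thymic epithelial function genes, Dll1, a Notch ligand, fell by 0.71 and 23 did not pass. Krt15, a keratin of basal cells, fell by 1.43, the only call among 15 basal keratinocyte probe sets. The called shares of the function and basal lists, 4.17% and 6.67%, are near the 5.68% over all probe sets. None of the 24 epidermal differentiation or 27 hair follicle probe sets passed.

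Of genes linked to fetal growth, Hmga2, a chromatin protein of embryonic and proliferating cells, had 9.55, 8.94 and 8.62 in P1 cultures, against 9.12 in the ungrafted E16 culture and 7.10, 7.45, 7.45 and 7.33 in the grafted ones. It rose by 1.17 (adjusted p = 0.0335 in limma), with the ungrafted E16 culture inside the P1 range. Sox4, a transcription factor of progenitor cells, fell by 1.43, and the imprinted growth regulators Igf2 and H19 did not pass, with differences of 0.03 and 0.60. Among 32 imprinted probe sets Slc22a18 rose by 0.65, and Cd81 and Impact fell by 0.69 and 0.68; Slc22a18 and Impact overlapped between the stages. The positional genes Hoxb7 and Hoxc4 rose by 0.93 and 1.02, from levels near 5 and 4 in E16 cultures, with overlap for Hoxc4, and the other 20 Hox probe sets did not pass. Of imprinted probe sets 9.38% were called and of Hox probe sets 9.09%, against 5.68% of all.

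In signalling pathways a few members passed, where 5.68% of all probe sets were called. The called share was 5.71% of 35 probe sets for Wnt and 6.67% of 30 for BMP and TGF-beta. It was 6.9% of 29 for FGF and EGF and 15.8% of 19 for Notch. All but Notch were near the share over all probe sets. The Notch calls were 2 rises and 1 fall, that of the ligand Dll1 by 0.71. Lfng and Rfng, which add sugars to Notch receptors, rose by 1.31 and 0.50, and the gene of Lfng lies on chromosome 12. Also higher were the Wnt ligand Wnt3a and the Wnt effector Tcf7, by 0.56 and 1.02, and Etv5, a target of FGF signalling, by 1.17. Id2, a target of BMP signalling, fell by 1.61 and Fst, which binds activin, rose by 0.89, both with overlapping values. Erbb3, a receptor of the EGF family, fell by 0.57, and its values and those of Tcf7 overlapped as well. The chemokine Cxcl14 rose by 1.12, the only call among 38 probe sets of chemokines, cytokines and wound response (2.63%). The gap junction gene Gjb5 fell by 0.67, the only call among 28 cell adhesion probe sets (3.57%). Both shares are below that over all probe sets. The median differences of the Wnt, Notch, BMP and TGF-beta, and FGF and EGF lists lay between 0.02 and 0.09.

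**Figure D3:**
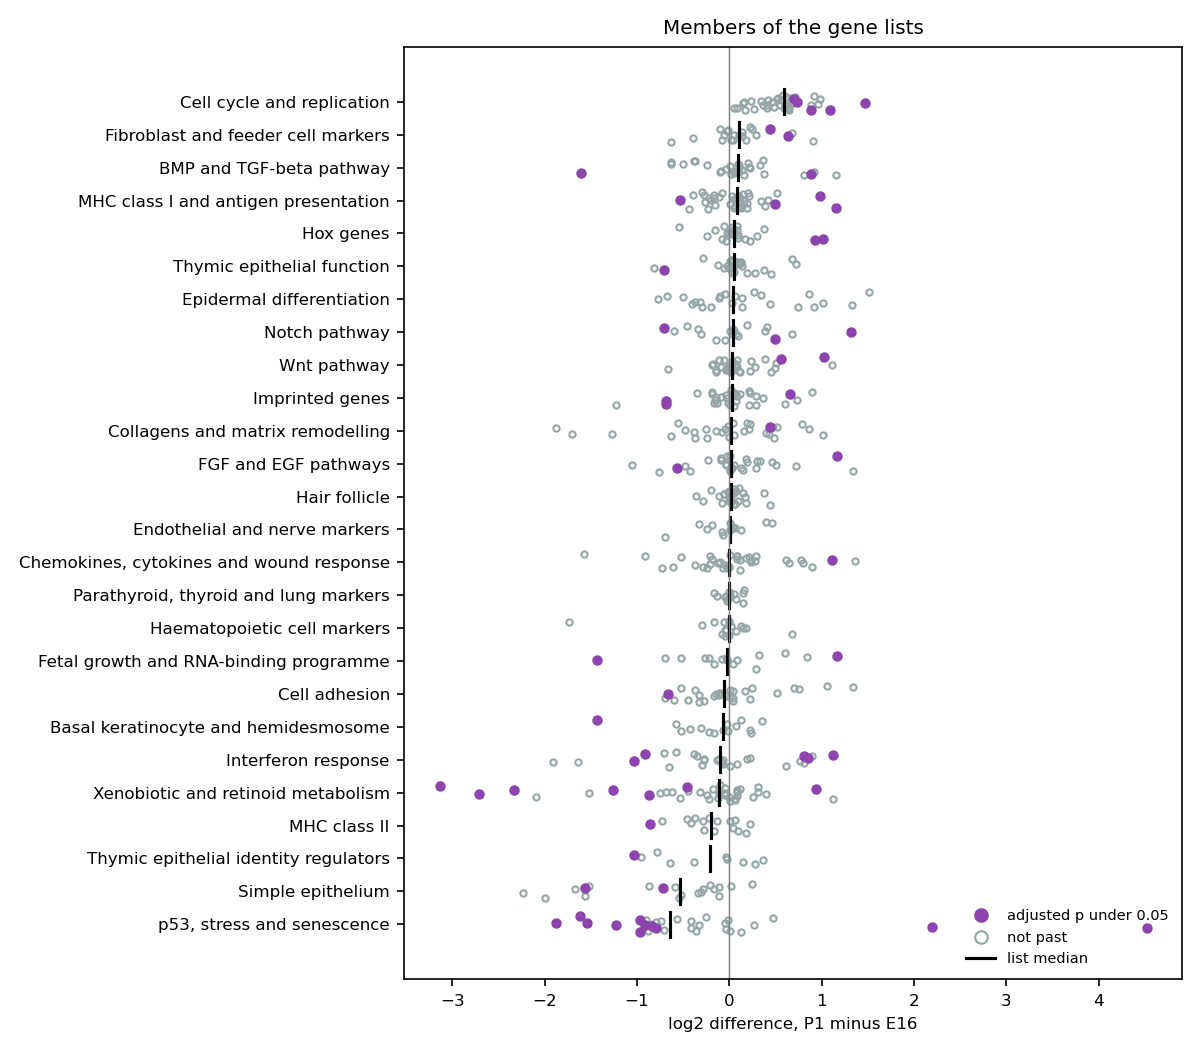
Log2 difference, P1 minus E16 (x axis), of each probe set of the lists with at least 10 probe sets, ordered by the list median (black bar). Filled points passed an adjusted p of 0.05 in limma and open points did not. The cell cycle list lies wholly above 0 with a median of 0.59, and the p53 and simple epithelium lists have medians of −0.64 and −0.54.

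Markers of other cells were read beside these results. Of 21 probe sets of fibroblast and feeder cell markers, Prrx1 and Col1a2 rose, by 0.63 and 0.44, and 19 did not pass, with a median of 0.10. That is 9.52% called, against 5.68% of all probe sets. The mean level over the list was 5.73 to 6.04 in P1 cultures and 5.60 to 5.85 in E16 cultures. Vim had 9.90 to 11.21 in P1 cultures and 6.85 to 10.45 in E16 cultures and did not pass. Their part in the results was not tested. None of the 17 haematopoietic or 14 endothelial and nerve probe sets passed. Cd68, a lysosomal protein of macrophages and other cells, was lower in every P1 culture without passing, at 5.57 to 5.78 against 6.70 to 8.78 in E16 cultures, while Ptprc was under 4 throughout.

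Higher calls were gathered on chromosome 12, a pattern chosen for description after the values were seen. Of 459 higher calls, 89 (19.4%) were on chromosome 12, which holds 436 of the tested probe sets, and 2 of its probe sets, those of N4bp2l1 and Oasl, were lower. With 1 probe set per gene and a mean level over 6, the median difference of 270 genes of chromosome 12 was 0.39, and the medians of the 20 other chromosomes lay between −0.07 and 0.05. On chromosome 12, 86.7% of these genes had a positive difference, against 42.3% to 56.9% on each of the others. Over genes with a mean level over 8 the median of chromosome 12 corresponded to 1.37-fold. The median was 0.38 in the ungrafted cultures, 0.37 after the first and 0.42 after the second transplantation, so it was present in each state.

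The shift was found in each P1 culture and in none of the others. Set against the mean of the 4-month thymic and hair follicle cultures, the chromosome 12 median was 0.43 in PRP1cl11_VII, 0.39 in Clone_57 and 0.43 in Clone_194. In the E16 cultures it was 0.01 in PRE16cl11_VII, 0.03 in Clone_218, 0.06 in Clone_347 and near 0 in Clone_217 and Clone_287. It lay between −0.05 and 0.04 in each of the other 8 cultures.

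**Figure D4:**
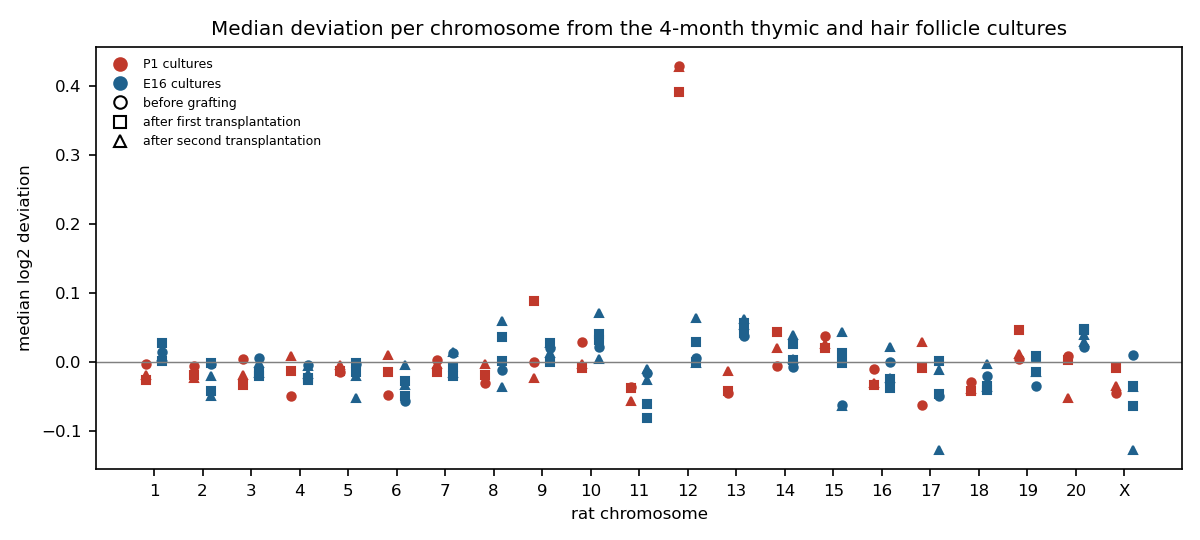
Median log2 deviation (y axis) of the genes of each rat chromosome (x axis) in each P1 culture (red) and E16 culture (blue) from the mean of the 4-month thymic and hair follicle cultures, 1 probe set per gene with a mean level over 6. On chromosome 12 the P1 cultures lie at 0.39 to 0.43, apart from all E16 cultures.

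The shift ran along the whole chromosome. In 10 consecutive stretches of 27 genes, in the order of GRCr8, the median difference lay between 0.24 and 0.56 and between 77.8% and 96.3% of the genes were positive. The 89 higher calls had differences between 0.39 and 1.47, with a median of 0.69 and Mcm7 at the top. Of them, 85 had no overlap between the stages, as had 731 of all 870 calls and 15.7% of all probe sets. Off chromosome 12, 779 calls remained within the same fit, 370 higher and 409 lower. The number of copies of the chromosome was not measured, and the cause of the shift was not tested.

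**Figure D5:**
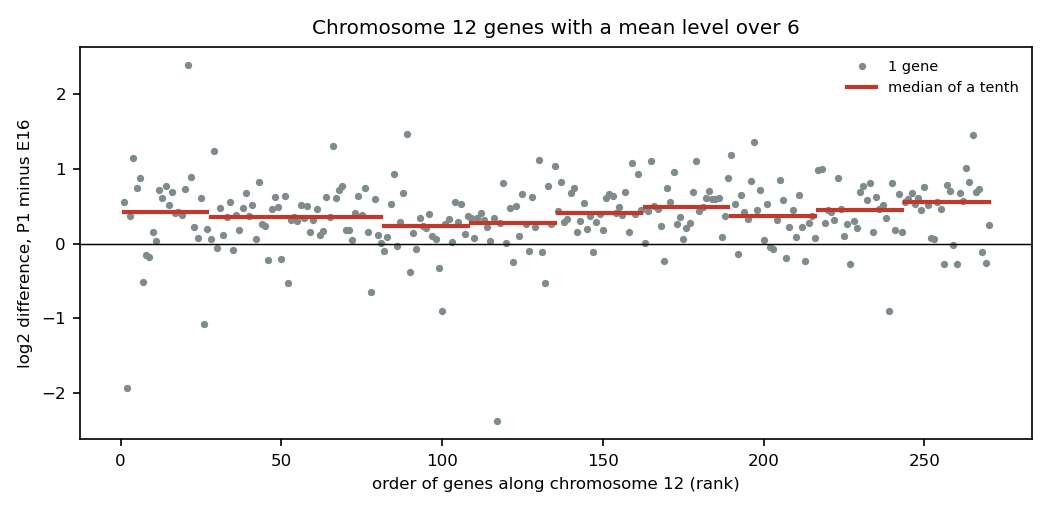
Log2 difference, P1 minus E16 (y axis), of 270 genes of chromosome 12 in their order along it (x axis, rank). Red bars are the medians of 10 stretches of 27 genes and all lie above 0, between 0.24 and 0.56.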

How the data were processed

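The deposited table holds log2 probe set signals, made by the authors; the submitters' processing notes name RMA and Affymetrix Expression Console, and versions and the genome build are not given in the sources used here. Of 29215 probe sets, 15316 carry 1 gene symbol in GEO's platform annotation and were tested, 317 carry several and 13582 none. Both arrays of a culture were averaged, since they share its name. P1 and E16 cultures were compared with limma 3.58.1 in R 4.3.3 (lmFit, eBayes) on 8 culture means with transplantation state as a covariate and Benjamini-Hochberg adjustment over all tested probe sets. The number of cultures limits the precision. The interaction used the same samples, and distances were tested by exact permutation within states. The script was tested on simulated data. Chromosomes and gene order come from RefSeq (GRCr8), matched by Entrez gene for 15284 probe sets.

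Named genes were the 15 largest increases and 15 largest decreases that passed without overlap and with the same sign in all states, up to 3 members of each list, and a panel with RT1-N2 and Krt8; further called list members, the neighbours of Cdkn2a and the chromosome pattern were chosen after their values were seen. The members and lists were chosen with earlier results of these data known.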

Additional observations from a re-analysis of the deposited data

Results flagged for a closer look

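In 44 probe sets of named genes, the 5 E16 cultures were checked for 1 culture far from the others by Dixon's test, and 4 were marked, where chance marks about 5% of such groups. Cdkn2a at 9.79, Cdkn2b at 8.76 and Hmga2 at 9.12 were far higher in PRE16cl11_VII, the ungrafted E16 culture, than in the 4 grafted E16 cultures. Tp63, the transcription factor of basal epithelia, was at 9.58 in Clone_287, above the other E16 cultures.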

How the results depend on the processing

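No paired analysis was possible because the replicate numbers in the labels mark the 2 arrays of a culture, which were averaged. The count of 870 called probe sets became 148 in the 6 grafted cultures, 1328 with state as before against grafted, 2602 with arrays as units and culture as a random block, 530 on array 1 and 202 on array 2 of each culture. Leaving out 1 culture gave 0 to 993 calls; leaving out either ungrafted culture is the fit of the 6 grafted cultures. Among the calls, 37.5% were higher on array 1 and 61.9% on array 2, against 52.8% in the main setting; centring arrays on their medians gave 43.9%. Of 104 called probe sets of named genes, none changed sign under any setting; 85 stayed called after median centring, 42 on array 2 alone, 0 without Clone_57 and 1 without Clone_194. The interaction stayed at 0 calls in the settings tried, and the distance difference between 0.0047 and 0.0237. The chromosome 12 median, less that of all genes, was 0.38, 0.41 on array 2, and 0.37 to 0.40 leaving out 1 culture. Without the genes of chromosome 12, a setting added after seeing the data, 628 probe sets were called. Among the called genes named, 1 or more cultures lay under 4 for Cdkn2a, Sema3a, Nqo2, Sult1d1, Hoxc4 and Oas1b, whose differences are uncertain for that reason.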

Other observations

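The gene groups below were drawn up after the values were seen, so their counts, medians and members are a description. Over all probe sets 3.00% were called higher and 2.68% lower. Of 72 probe sets of autophagy and lysosome genes, 11 fell, 3 rose and 58 did not pass, with a median difference of −0.20. Manba, a lysosomal mannosidase, fell by 1.42, Gabarapl1 and Map1lc3a, which coat autophagosomes, by 1.40 and 0.89, Hpse, a heparanase, by 1.01, and Sqstm1, an autophagy receptor, by 0.86. Wipi2, an autophagy gene on chromosome 12, rose by 0.46. Of 19 histone probe sets, 8 rose and 11 did not pass, with a median of 0.51: the linker histones H1f1 and H1f5 rose by 1.62 and 1.52 and the core histones H2ac1 and H2ac4 by 1.58 and 1.36. Histone genes are near-identical copies, so a probe set may read several of them.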
